A study of Komagataella pastoris with 6 samples.

Results

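The transcripts followed here are those of the enzymes that make arginine in the methylotrophic yeast *Komagataella phaffii* (the labels give the species as *K. pastoris*). The genes were taken from the deposited count table by their KEGG orthology description. A row was kept if it named an acetylglutamate, acetylornithine or argininosuccinate enzyme, a glutamate or amino-acid *N*-acetyltransferase, ornithine carbamoyltransferase or carbamoyl-phosphate synthase. The row that also named aspartate carbamoyltransferase was left out, because that protein serves pyrimidine synthesis. These words picked 9 of 5427 genes. The rule itself uses no measured value, although it was set with earlier results of these data known, and the 8 described here passed the filter on low counts, as did 5426 genes in all.

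In yeasts, arginine is built from glutamate. Glutamate is acetylated and carried through acetylated intermediates to ornithine, an arginine-specific carbamoyl-phosphate synthase supplies a carbamoyl group, and ornithine is then turned into citrulline, argininosuccinate and arginine. In *Saccharomyces cerevisiae*, many of these genes are repressed by the ArgR-Mcm1 complex when arginine is plentiful and induced by the activator Gcn4 when amino acids run short.

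The gene names used here are the *S. cerevisiae* names of the enzymes, and the roles are known from that yeast. The count table itself gives *ARG2*, *ARG56* (written *ARG5,6* below), *CPA1* and *Arg1*, whereas *ARG3*, *ARG4*, *ARG7* and *ARG8* were named from the enzyme in the description. *ARG2* (BQ9382_C1-5230) encodes the acetyltransferase that starts the route with acetyl-CoA. *ARG7* (BQ9382_C3-5575) encodes the enzyme that passes the acetyl group from acetylornithine back to glutamate, and so closes the acetyl cycle, and the description of this row names the starting acetyltransferase activity too. *ARG5,6* (BQ9382_C2-6125) encodes both acetylglutamate kinase and the reductase after it, and *ARG8* (BQ9382_C4-1695) encodes acetylornithine aminotransferase. *CPA1* (BQ9382_C4-4605) encodes the small subunit of the carbamoyl-phosphate synthase. *ARG3* (BQ9382_C3-3090) encodes ornithine carbamoyltransferase, *ARG1* (BQ9382_C3-5320) argininosuccinate synthase and *ARG4* (BQ9382_C1-3645) argininosuccinate lyase, the enzyme of the last step.

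The study compared 3 groups of 2 RNA-seq libraries each, all harvested after 24 h in YPA, a rich medium of yeast extract, peptone and acetate. *GS115*, a histidine auxotroph with the genotype *his4*, was grown in YPA (*GS115*-YPA, libraries A and B) or in YPA with 650 µM added histidine (*GS115*-YPAH5x, libraries E and F). *X33*, a histidine prototroph with the genotype *HIS4*, was grown in YPA with no histidine added (*X33*-YPA, libraries C and D). The description label calls every sample wild type, and the genotype label was followed. No arginine was added to any group. No label says that the duplicates came from separate cultures, so p-values measure only the spread between these libraries, which may be technical.

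Library totals ran from 32194047 to 43447246 counts. For single genes counting error can still matter, as *ARG3* had 250 and 275 counts in C and D. Over all genes, counting error was small beside the spread between duplicates. That spread was widest in *GS115*-YPA, where B stood above A for 6 of the 8 arginine genes, with a median difference of 0.24 on the log2 scale. *HIS4* (BQ9382_C1-4895), the gene in which the strains differ, had 365 and 501 CPM (read counts scaled to library size) in *GS115*-YPA, against 187 and 220 in *X33*-YPA and against 207 and 181 in *GS115*-YPAH5x. The labels do not say what the *his4* mutation is, so this level checks no label.

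As a group, the 8 arginine genes took a smaller share of the reads in the prototroph and in the auxotroph with added histidine. They held 0.244% of the counts of library A (95% Wilson interval 0.242 to 0.245) and 0.306% of library B (0.304 to 0.308). Their share was 0.0587% in C (0.0579 to 0.0596) and 0.0542% in D (0.0535 to 0.0549). It was 0.0555% in E (0.0548 to 0.0562) and 0.0557% in F (0.0549 to 0.0564). Both *GS115*-YPA libraries thus stood above all 4 others. These intervals cover counting error only, and in bulk RNA a lower level in every cell cannot be told apart from loss of the transcript in some of the cells.

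Against *GS115*-YPA, *X33*-YPA had lower transcripts of 7 of the 8 arginine genes and a higher level of 1, *ARG7*. With histidine added to *GS115*, 6 were lower, *ARG7* was again higher, and *ARG2* did not pass the test. *ARG3* had the largest change of the 8 in both comparisons. The test was edgeR's quasi-likelihood test over all genes with Benjamini-Hochberg adjustment, and a gene was called at an adjusted p under 0.05. Both comparisons use the same *GS115*-YPA libraries, so they are not independent of each other.

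**Figure D1:**
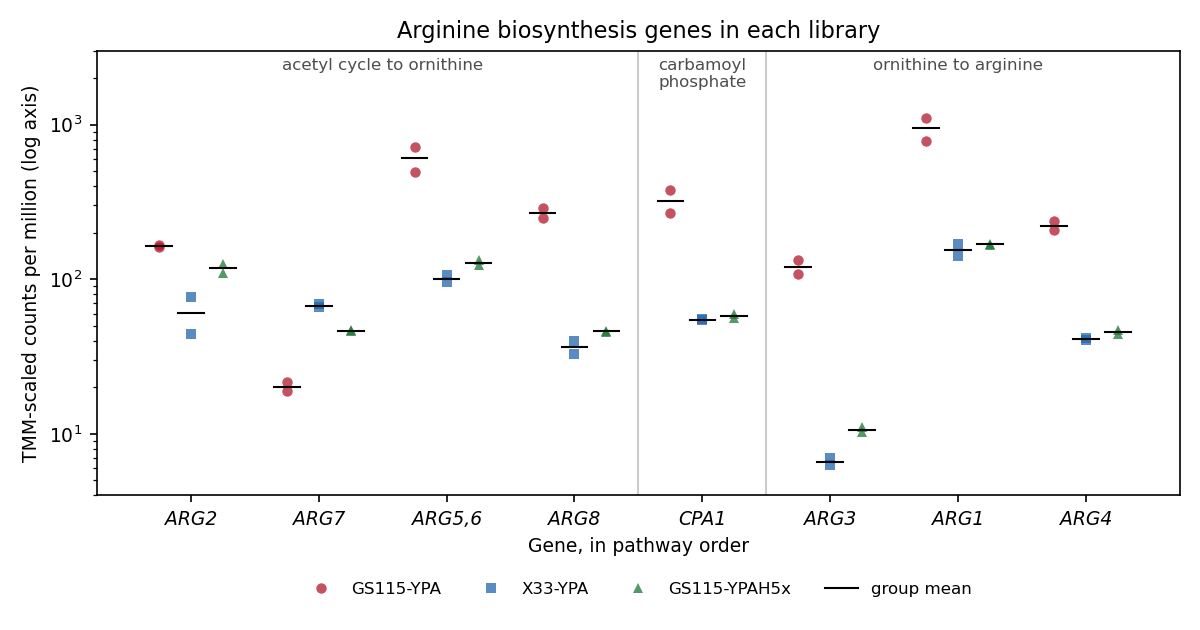
TMM-scaled CPM (log axis) of each arginine gene in each library, in pathway order, with red circles for *GS115*-YPA, blue squares for *X33*-YPA, green triangles for *GS115*-YPAH5x and a black line at each group mean of 2 libraries. The red circles lie above the others for 7 genes and below them for *ARG7* (21.7 and 18.9 CPM against 46.0 to 68.9). The share of all genes with such a separation was not computed, so this count cannot be judged against it. Heights of different genes are not comparable, since CPM are not scaled by gene length.

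The values below are CPM scaled by TMM, edgeR's trimmed mean normalisation. CPM take no account of gene length, so they compare libraries and not genes. The acetyl cycle held the genes that behaved least alike. *ARG2*, which starts the cycle, had 166 and 163 CPM in *GS115*-YPA, against 44.4 and 76.7 in *X33*-YPA and against 110 and 126 in *GS115*-YPAH5x. No groups overlapped, but the *X33*-YPA duplicates differed 1.73-fold, the widest gap between duplicates of any arginine gene. On the log2 scale it changed by -1.44 (SE 0.23, adjusted p = 0.000325) in *X33*-YPA, with a value of -0.48 (SE 0.22, adjusted p = 0.0881) in *GS115*-YPAH5x. In *GS115*-YPAH5x, *ARG2* passed the test with some other settings, among them upper-quartile scaling (-0.61, adjusted p = 0.0345) and a fit without *X33*-YPA library C (-0.52, adjusted p = 0.0148) or D (-0.52, adjusted p = 0.0143).

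*ARG7*, which recycles the acetyl group, was the only arginine gene whose transcripts rose. It had 21.7 and 18.9 CPM in *GS115*-YPA, against 65.7 and 68.9 in *X33*-YPA and against 46.7 and 46.0 in *GS115*-YPAH5x. The 3 groups did not overlap, and the duplicates lay within 1.15-fold of each other. On the log2 scale it rose by 1.73 (SE 0.13, adjusted p = 4.02e-06) in *X33*-YPA, a 3.33-fold rise, and 1.19 (SE 0.13, adjusted p = 4.94e-05) in *GS115*-YPAH5x.

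The other genes of the acetyl cycle fell. *ARG5,6*, for the kinase and reductase, had 497 and 719 CPM in *GS115*-YPA, against 106 and 96.0 in *X33*-YPA and against 132 and 123 in *GS115*-YPAH5x. *ARG8*, for the aminotransferase that yields acetylornithine, had 249 and 287, 39.8 and 32.7, and 45.7 and 46.5 CPM in the same order. For both genes the *GS115*-YPA libraries stood far above the rest, and A and B differed 1.45-fold in *ARG5,6*. *ARG5,6* fell by 2.59 on the log2 scale in *X33*-YPA (SE 0.19, adjusted p = 3.09e-06) and fell by 2.25 in *GS115*-YPAH5x (SE 0.19, adjusted p = 8.12e-06). *ARG8* fell by 2.89 (SE 0.16, adjusted p = 5.89e-07) and fell by 2.54 (SE 0.16, adjusted p = 1.55e-06).

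The small subunit of the carbamoyl-phosphate synthase fell likewise. *CPA1*, whose product takes the amide group from glutamine, had 269 and 377 CPM in *GS115*-YPA, against 55.4 and 54.2 in *X33*-YPA and against 56.2 and 59.6 in *GS115*-YPAH5x. The *X33*-YPA and *GS115*-YPAH5x libraries were close to each other and well under both *GS115*-YPA libraries. *CPA1* fell by 2.56 on the log2 scale in *X33*-YPA (SE 0.18, adjusted p = 2.3e-06) and fell by 2.48 in *GS115*-YPAH5x (SE 0.18, adjusted p = 3.23e-06).

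The steps from ornithine to arginine fell as well, most of all *ARG3*, whose product joins ornithine and carbamoyl phosphate. *ARG3* had 109 and 132 CPM in *GS115*-YPA, against 7.0 and 6.26 in *X33*-YPA and against 10.2 and 11.1 in *GS115*-YPAH5x, from 250 and 275 counts in C and D. The 3 groups were well apart. On the log2 scale it stood at -4.19 in *X33*-YPA (SE 0.17, adjusted p = 1.45e-07), an 18.2-fold fall and the 14th lowest of 5426 genes. In *GS115*-YPAH5x it was -3.50 (SE 0.16, adjusted p = 5.96e-07), an 11.3-fold fall and the 13th lowest.

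*ARG1*, for the synthase that adds aspartate to citrulline, had 788 and 1100.2 CPM in *GS115*-YPA, against 169 and 141 in *X33*-YPA and against 169 and 167 in *GS115*-YPAH5x. *ARG4*, for the lyase that releases arginine, had 208 and 236, 41.7 and 40.3, and 47.1 and 43.9 CPM. In both genes A and B were above the other 4 libraries, which lay close together. *ARG1* fell by 2.61 on the log2 scale in *X33*-YPA (SE 0.19, adjusted p = 2.92e-06) and fell by 2.49 in *GS115*-YPAH5x (SE 0.19, adjusted p = 4.79e-06). *ARG4* fell by 2.44 (SE 0.14, adjusted p = 6.87e-07) and fell by 2.29 (SE 0.14, adjusted p = 1.55e-06).

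**Figure D2:**
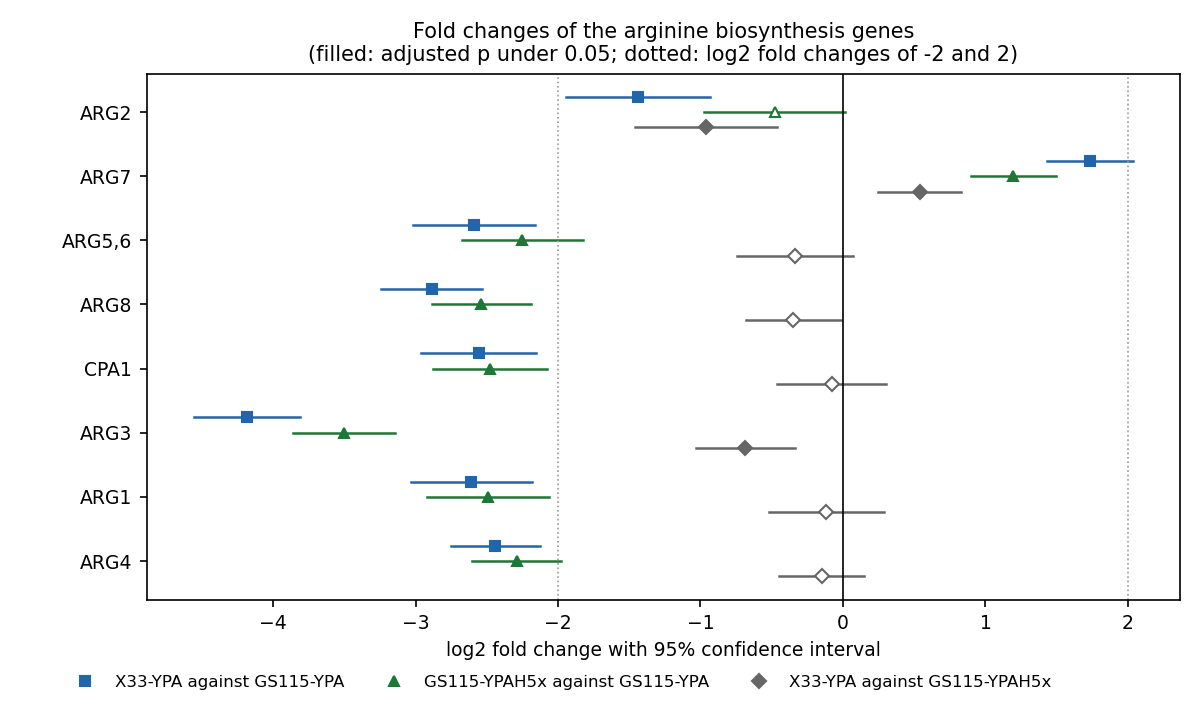
Log2 fold changes (horizontal axis) with 95% confidence intervals of the 8 arginine genes in 3 comparisons, *X33*-YPA (blue squares) and *GS115*-YPAH5x (green triangles) each against *GS115*-YPA, and *X33*-YPA against *GS115*-YPAH5x (grey diamonds). Filled symbols passed an adjusted p under 0.05 and dotted lines mark -2 and 2. Against *GS115*-YPA 6 genes lie beyond -2, whereas between *X33*-YPA and *GS115*-YPAH5x all 8 lie between -0.96 and 0.54.

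Read against the whole transcriptome, the counts were as follows. In *X33*-YPA, 32.8% of all 5426 genes tested were lower and 33.4% higher, and of the arginine genes 7 and 1 of 8. In *GS115*-YPAH5x 29.1% of all genes were lower and 30.7% higher, and of the arginine genes 6 and 1 of 8. The median log2 fold change of the 8 was -2.57 and -2.38, where that of all genes was 0.01 and 0.00051.

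The study's threshold adds a change of at least 2 log2 units in either direction. In *X33*-YPA, 4.26% of all genes fell past it and 2.54% rose past it, with 6 and 0 of the arginine genes. In *GS115*-YPAH5x, 2.71% fell and 2.62% rose past it, with 6 and 0 of the arginine genes. Without library B, *ARG5,6* stood at -1.96 in *GS115*-YPAH5x, short of this threshold. *ARG2* and *ARG7* were within it in both comparisons.

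**Figure D3:**
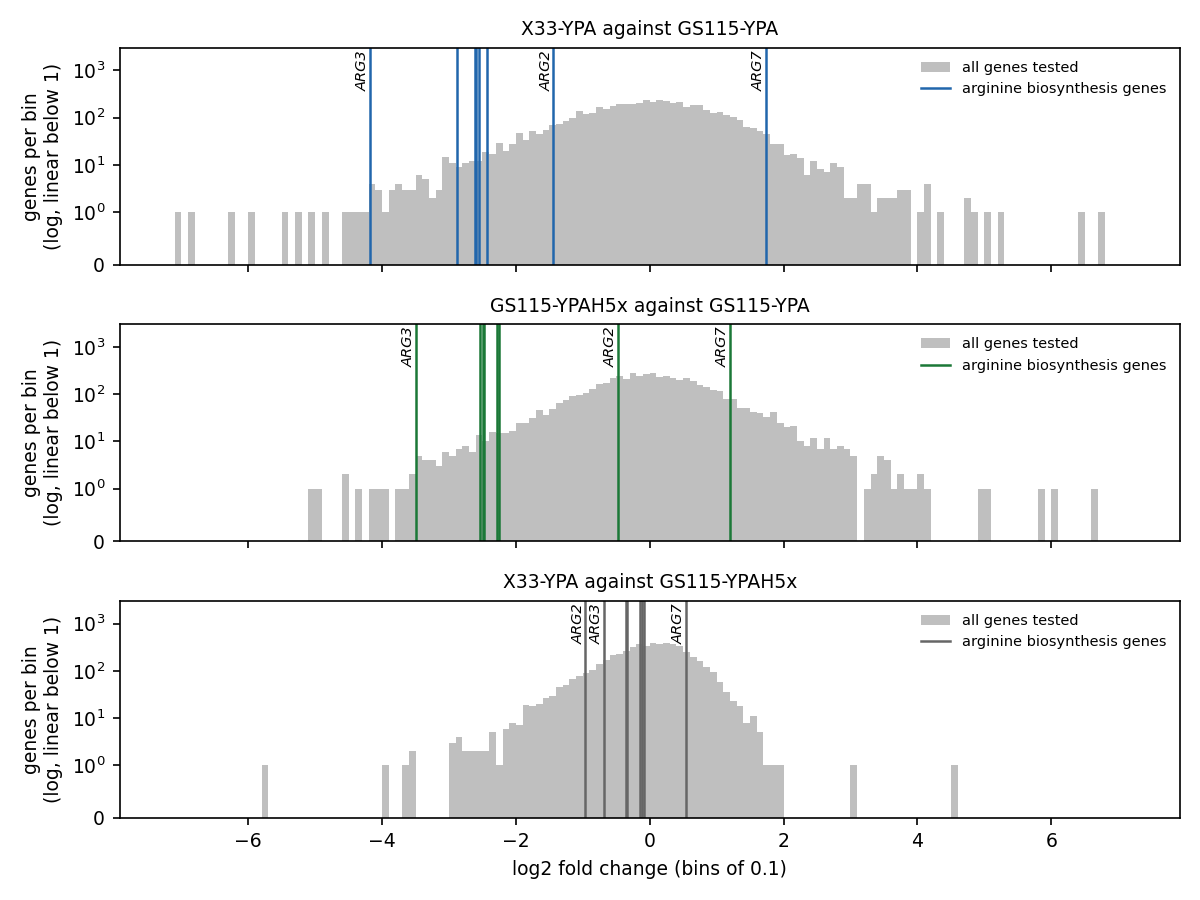
Distribution of the log2 fold change (bins of 0.1) over the 5426 genes tested in each of the 3 comparisons, as grey bars of gene number on a log axis that is linear below 1, with the 8 arginine genes as coloured lines. In the upper 2 panels most lines lie far to the left of the bulk, with *ARG3* at -4.19 and -3.50 and *ARG7* on the right at 1.73 and 1.19, and in the lower panel all lines fall within the bulk.

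Whether a prototroph that makes histidine and an auxotroph that is given it differ in these genes was tested directly. Relative to *GS115*-YPAH5x, *ARG2* and *ARG3* were lower and *ARG7* was higher in *X33*-YPA, while 5 of the 8 genes did not pass the test. Of all genes, 21.6% were lower and 19.8% higher. The median log2 difference of the 8 was -0.24, against 0.03 for all genes.

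*ARG2* was lower by a log2 difference of -0.96 (SE 0.22, adjusted p = 0.00833), with 44.4 and 76.7 CPM in *X33*-YPA under 110 and 126 in *GS115*-YPAH5x. *ARG3* differed by -0.69 (SE 0.16, adjusted p = 0.00762), and *ARG7* by 0.54 (SE 0.13, adjusted p = 0.00998). For each of these genes the groups did not overlap, which adds no support, since they were the genes called in this same test. The calls also depended on single libraries. Without library F, *ARG2* stood at -0.86 (adjusted p = 0.0529), *ARG3* at -0.63 (adjusted p = 0.0727) and *ARG7* at 0.52 (adjusted p = 0.0918). Without library D, *ARG3* was at -0.61 (adjusted p = 0.0662) and *ARG7* at 0.50 (adjusted p = 0.0659), and without library E *ARG7* was at 0.55 (adjusted p = 0.0692).

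For the other 5 genes the intervals limit how far the groups could differ. The 95% interval of the log2 difference was -0.75 to 0.07 for *ARG5,6*, -0.68 to -0.01 for *ARG8* and -0.46 to 0.30 for *CPA1*. It was -0.52 to 0.29 for *ARG1* and -0.45 to 0.15 for *ARG4*. These differences are thus small beside the falls of more than 2 log2 units seen against *GS115*-YPA, without being shown to be nil. *ARG5,6* (adjusted p = 0.0285) and *ARG8* (adjusted p = 0.0349) were called lower when only the 4 libraries compared were fitted, and likewise without library A (adjusted p = 0.0319 and 0.041) or B (adjusted p = 0.032 and 0.0398).

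Ratios of reads within a library need no scaling between libraries. They set the changes of paired transcripts, given gene by gene in this text, against each other and do not measure the activity of the pathway. The ratio of *ARG7* to *ARG2* reads was 0.13 and 0.12 in *GS115*-YPA, against 1.48 and 0.899 in *X33*-YPA and against 0.425 and 0.364 in *GS115*-YPAH5x. The groups did not overlap, and *X33*-YPA stood highest. The size of such a ratio also holds the unknown lengths of both genes, so only its change between libraries can be read.

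Carbamoyl phosphate is made by both the arginine and the pyrimidine route. *URA2* (BQ9382_C2-0795), the protein of the pyrimidine route that carries its own carbamoyl-phosphate synthase with aspartate carbamoyltransferase, had 123 and 149 CPM in *GS115*-YPA, against 209 and 213 in *X33*-YPA and against 205 and 203 in *GS115*-YPAH5x. It rose by 0.63 on the log2 scale (SE 0.14, adjusted p = 0.00303) and 0.59 (SE 0.14, adjusted p = 0.00558), although without library F the rise in *GS115*-YPAH5x was 0.57 (adjusted p = 0.052). The ratio of *CPA1* to *URA2* reads was 2.18 and 2.53 in *GS115*-YPA, against 0.265 and 0.255 in *X33*-YPA and against 0.274 and 0.293 in *GS115*-YPAH5x. Both *GS115*-YPA libraries stood above the other 4.

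For *ARG1* and *ARG4*, whose enzymes act in turn, the ratio of reads was 3.78 and 4.65 in *GS115*-YPA, against 4.06 and 3.49 in *X33*-YPA and against 3.59 and 3.8 in *GS115*-YPAH5x, with overlapping groups.

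**Figure D4:**
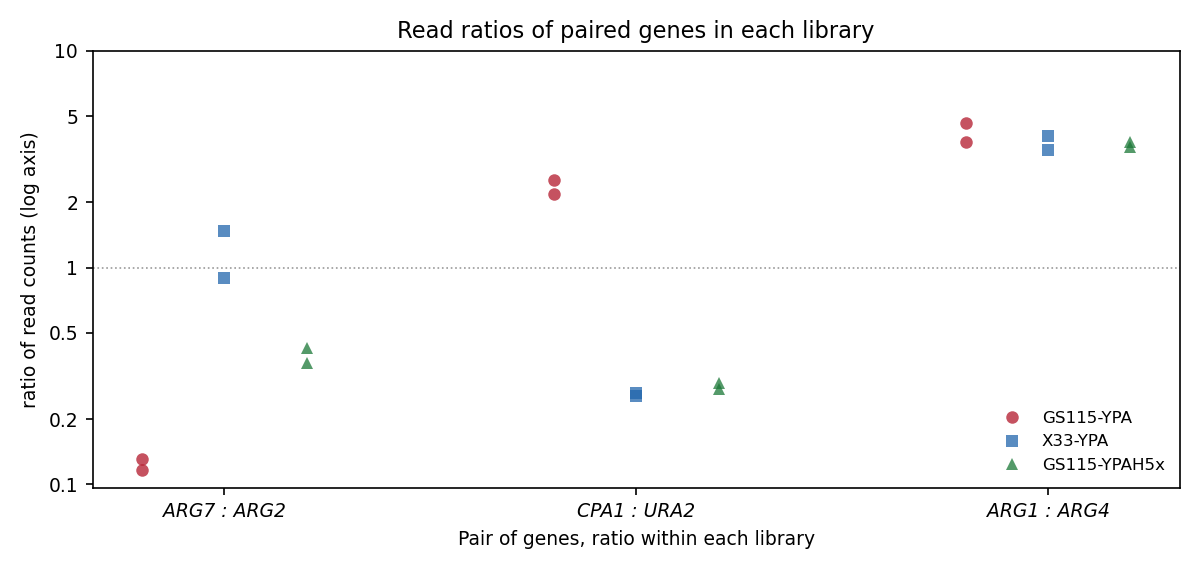
Ratio of read counts of 2 genes within each library (log axis) for 3 pairs, with red circles for *GS115*-YPA, blue squares for *X33*-YPA, green triangles for *GS115*-YPAH5x and a dotted line at 1. *ARG7* to *ARG2* runs from 0.12 to 1.48 and *CPA1* to *URA2* from 0.255 to 2.53, whereas *ARG1* to *ARG4* stays between 3.49 and 4.65.

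Genes around the pathway were taken by words of their description too, and moved in both directions. Of 21 such genes, 9 were higher, 4 lower and 8 not called in *X33*-YPA, and 10, 4 and 7 in *GS115*-YPAH5x, beside the shares of all genes given above. Of these, 3 were caught by their letters only and have no known tie to arginine. They are the folate enzymes BQ9382_C1-4085 (log2 fold change -0.78 in *X33*-YPA and -1.11 in *GS115*-YPAH5x) and BQ9382_C4-4280 (-0.21 and -0.54), and *MCM10* (BQ9382_C4-3570, 0.39 and -0.07).

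Of 3 rows for the breakdown of arginine, 2 rose in both comparisons with *GS115*-YPA. Of all genes, 33.4% were higher in *X33*-YPA and 30.7% in *GS115*-YPAH5x. The share higher in both was not computed, so this count cannot be judged against it. The arginase BQ9382_C4-1485, which splits arginine into ornithine and urea, had 322 and 228 CPM in *GS115*-YPA, against 858 and 920 in *X33*-YPA and against 1009.9 and 1062 in *GS115*-YPAH5x. The groups did not overlap, with log2 fold changes of 1.69 (SE 0.18, adjusted p = 2.61e-05) and 1.91 (SE 0.18, adjusted p = 1.63e-05). The ornithine transaminase BQ9382_C3-4210, the next enzyme of breakdown, had 658 and 505, 1011 and 1037, and 1119 and 1170 CPM, with log2 fold changes of 0.82 (adjusted p = 0.00126) and 0.98 (adjusted p = 0.000532). A further row described as arginase, BQ9382_C2-1650, had 648 and 317 CPM in *GS115*-YPA, and these duplicates spanned the *X33*-YPA values of 554 and 644. Its values were 0.31 (adjusted p = 0.33) and 0.74 (adjusted p = 0.0379). Without library A the value in *X33*-YPA was 0.88 (adjusted p = 0.000747), and the call in *GS115*-YPAH5x was lost without any 1 of the 5 other libraries, with values of 0.32 to 0.76.

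Polyamines are made from ornithine, and their genes differed among themselves. Ornithine decarboxylase (BQ9382_C3-4175), which takes ornithine into polyamines, had 309 and 371 CPM in *GS115*-YPA, against 175 and 196 in *X33*-YPA and against 336 and 352 in *GS115*-YPAH5x. It was low in *X33*-YPA alone, at -0.87 on the log2 scale (SE 0.15, adjusted p = 0.000577) there and 0.02 (SE 0.15, adjusted p = 0.934) in *GS115*-YPAH5x. The direct difference was -0.89 (SE 0.15, adjusted p = 0.00193). Of 2 rows described as spermidine synthase, BQ9382_C4-1685 rose by log2 fold changes of 1.70 and 0.91, from 8.67 and 7.49 CPM, whereas BQ9382_C2-2815 had values of -0.83 (adjusted p = 0.000235) and -0.42 (adjusted p = 0.0148), of which the latter was not called without library E (-0.43) or F (-0.43). *S*-adenosylmethionine decarboxylase (BQ9382_C2-5935), the source of the aminopropyl group, had values of 0.40 (adjusted p = 0.0271) and 0.65 (adjusted p = 0.00282). Its call in *X33*-YPA was lost without any 1 of 5 libraries, all but B, with values of 0.23 to 0.40.

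**Figure D5:**
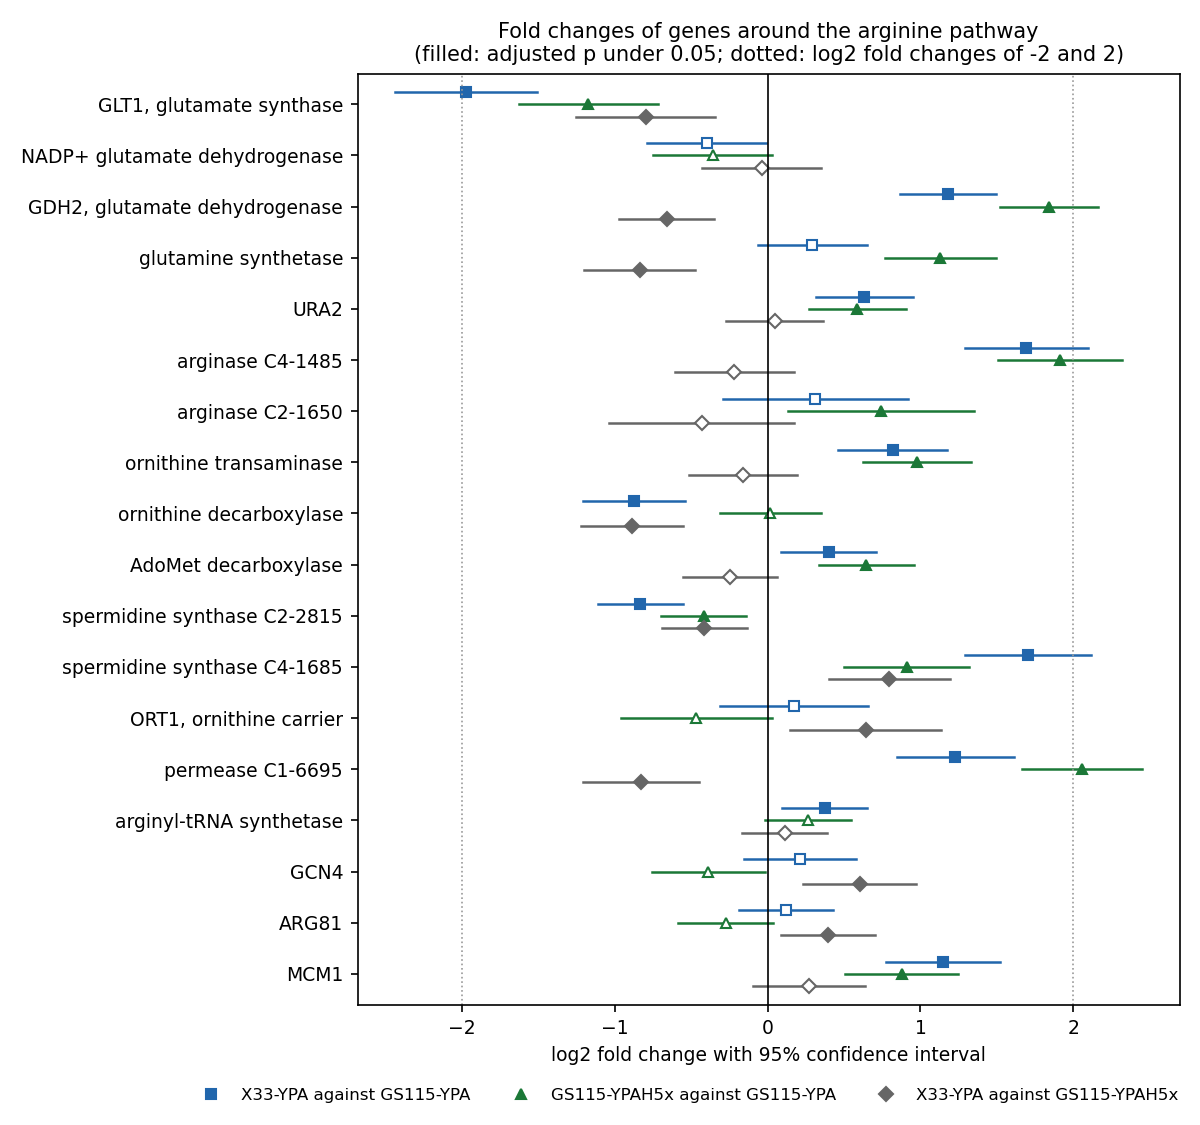
Log2 fold changes (horizontal axis) with 95% confidence intervals of 18 genes around the arginine pathway in the same 3 comparisons and colours, filled where the adjusted p was under 0.05, with dotted lines at -2 and 2. The arginase BQ9382_C4-1485 lies at 1.69 and 1.91 and *GDH2* at 1.18 and 1.84, opposite to *GLT1* at -1.97 and -1.17.

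The supply of glutamate and glutamine, which give nitrogen to the route, moved unevenly. Glutamate synthase *GLT1* (BQ9382_C3-0840), which makes glutamate from glutamine, had 512 and 725 CPM in *GS115*-YPA, against 152 and 163 in *X33*-YPA and against 232 and 316 in *GS115*-YPAH5x. It fell by 1.97 on the log2 scale (SE 0.21, adjusted p = 2.61e-05) and fell by 1.17 (SE 0.20, adjusted p = 0.000795). *GDH2* (BQ9382_C2-5330), the glutamate dehydrogenase that breaks glutamate down, had 157 and 180, 393 and 370, and 616 and 591 CPM, and rose by 1.18 (adjusted p = 5.63e-05) and 1.84 (adjusted p = 5.4e-06). The NADP+ glutamate dehydrogenase BQ9382_C1-2155, which makes glutamate from ammonium, had values of -0.40 (adjusted p = 0.0661) and -0.36 (adjusted p = 0.1). It was called lower in *X33*-YPA by DESeq2 (-0.41, adjusted p = 0.0397) and with at least 10 CPM in 2 libraries (-0.44, adjusted p = 0.0453). In *GS115*-YPAH5x it was called with upper-quartile scaling (-0.50, adjusted p = 0.0308) and library totals (-0.56, adjusted p = 0.0145), and stood at -0.61 without library E. Glutamine synthetase (BQ9382_C4-0910) had values of 0.29 (adjusted p = 0.132) in *X33*-YPA and 1.13 (adjusted p = 0.000244) in *GS115*-YPAH5x, was called in *X33*-YPA with library totals (0.36, adjusted p = 0.0367) and without library B (0.50, adjusted p = 0.01), and differed directly by -0.84 (adjusted p = 0.00362).

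Of the regulators known from *S. cerevisiae*, *GCN4*, *ARG81* and *MCM1* were not called lower against *GS115*-YPA in this test, although *GCN4* and *ARG81* were in *GS115*-YPAH5x with other settings. *GCN4* (BQ9382_C1-5910), the general activator of amino acid synthesis genes, had 697 and 592 CPM in *GS115*-YPA, against 764 and 729 in *X33*-YPA and against 555 and 429 in *GS115*-YPAH5x. Its values were 0.21 (adjusted p = 0.277) and -0.39 (adjusted p = 0.0657), and it was called lower in *GS115*-YPAH5x by DESeq2 (adjusted p = 0.046), with upper-quartile scaling (-0.53, adjusted p = 0.0203), with library totals (-0.59, adjusted p = 0.0096), with at least 10 CPM in 2 libraries (-0.44, adjusted p = 0.0404) and without library B (-0.50, adjusted p = 0.0255). *ARG81* (BQ9382_C2-6870), a subunit of the ArgR complex, had values of 0.12 (adjusted p = 0.46) and -0.27 (adjusted p = 0.113), and was called lower in *GS115*-YPAH5x with upper-quartile scaling (-0.41, adjusted p = 0.0315) and library totals (-0.48, adjusted p = 0.0153). *MCM1* (BQ9382_C3-1125), its partner with many other roles, rose from 198 and 202 CPM to 384 and 501 and to 338 and 395, by 1.15 (adjusted p = 0.000195) and 0.88 (adjusted p = 0.00134). These are transcript levels, and *S. cerevisiae* Gcn4 is set mainly by translation.

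Arginyl-tRNA synthetase (BQ9382_C3-5635), which uses arginine for translation, had values of 0.37 (adjusted p = 0.0234) and 0.26 (adjusted p = 0.095), and the call in *X33*-YPA was lost without any 1 of the libraries C to F, with values of 0.32 to 0.37. The mitochondrial ornithine carrier *ORT1* (BQ9382_C3-6020), which moves ornithine out to the cytosol, was sparse at 6.45 to 11.5 CPM, with values of 0.17 (adjusted p = 0.498) and -0.47 (adjusted p = 0.0941). *ORT1* was called lower in *GS115*-YPAH5x with upper-quartile scaling (-0.61, adjusted p = 0.0442) and library totals (-0.68, adjusted p = 0.0282). Without library B its value there was -0.72. The amino acid permease BQ9382_C1-6695, a general amino acid permease by its protein name and a basic amino acid and polyamine antiporter by its orthology description, had 42.1 and 57.8 CPM in *GS115*-YPA, against 112 and 123 in *X33*-YPA and against 220 and 197 in *GS115*-YPAH5x. It rose by 1.23 (adjusted p = 0.000156) and 2.06 (adjusted p = 8.73e-06).

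A search of the protein names for arginine and ornithine transporters, made after values had been seen, added 5 rows. BQ9382_C1-3400, described as a plasma membrane arginine permease, had 90.5 and 123 CPM in *GS115*-YPA, against 250 and 221 in *X33*-YPA and against 667 and 583 in *GS115*-YPAH5x, with log2 fold changes of 1.15 (adjusted p = 0.000287) and 2.55 (adjusted p = 3.23e-06). The permeases BQ9382_C1-7370 and BQ9382_C1-8205 carry the same description, so reads of close copies may be shared. Their values were 0.53 (adjusted p = 0.00418) and 0.86 (adjusted p = 0.000272), and 0.41 (adjusted p = 0.0431) and 0.97 (adjusted p = 0.000605). The *X33*-YPA call of BQ9382_C1-8205 was lost without any 1 of 5 libraries, all but B, with values of 0.23 to 0.48. BQ9382_C2-4100, described as an ornithine transporter of mitochondria, went the other way, from 40.9 and 47.7 CPM to 8.98 and 12.4 and to 20.5 and 22.98, by -2.05 (adjusted p = 9.23e-06) and -1.03 (adjusted p = 0.000737). BQ9382_C3-4375, a further carrier row, had values of -0.03 (adjusted p = 0.899) and -0.27 (adjusted p = 0.215).

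Between *X33*-YPA and *GS115*-YPAH5x, 4 of the 21 related genes were higher and 6 lower, beside 19.8% and 21.6% of all genes. The spermidine synthase BQ9382_C4-1685 was higher by 0.80 (adjusted p = 0.00704), with a value of 0.59 without library F. *GCN4* was higher by 0.60 (adjusted p = 0.0168), *ARG81* by 0.40 (adjusted p = 0.0444) and *ORT1* by 0.64 (adjusted p = 0.0416). The calls of *ARG81* (0.29 to 0.49) and *ORT1* (0.48 to 0.79) were lost when any 1 of the libraries C to F was left out, and that of *GCN4* (0.42 to 0.63) without C, D or F. The permease BQ9382_C1-6695 was lower by -0.83 (adjusted p = 0.00476), *GDH2* by -0.66 (adjusted p = 0.00546) and *GLT1* by -0.80 (adjusted p = 0.0122). The spermidine synthase BQ9382_C2-2815 was lower by -0.41 (adjusted p = 0.0241), with values of -0.45 to -0.38 with 1 library left out. Ornithine decarboxylase and glutamine synthetase were lower too, as given above. Without library C, D or F, *GLT1* had values of -0.75, -0.85 and -0.56 and was not called, and without D *GDH2* stood at -0.62 (adjusted p = 0.0502). The arginase BQ9382_C4-1485 differed by -0.22 (adjusted p = 0.333, interval -0.61 to 0.17). Of the 5 transporter rows added by protein name, 3 were lower and 2 were not called. The arginine permease BQ9382_C1-3400 was lower by -1.40 (adjusted p = 0.000557) and the ornithine transporter BQ9382_C2-4100 by -1.02 (adjusted p = 0.00243). The permease BQ9382_C1-8205 was lower by -0.56 (adjusted p = 0.0203), with values of -0.68 to -0.43 with 1 library left out.

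The synthesis genes of 2 other amino acids are given for comparison. Of all genes, 32.8% were lower and 33.4% higher in *X33*-YPA, and 29.1% and 30.7% in *GS115*-YPAH5x. Of 7 histidine synthesis genes, 5 were lower and 0 higher in *X33*-YPA, with a median log2 fold change of -1.74, and 5 and 1 in *GS115*-YPAH5x, with a median of -1.75. The lower genes include *HIS4*, the gene in which the strains differ, at -1.09 (adjusted p = 0.000477) and -1.15 (adjusted p = 0.000433). The 1 higher gene, BQ9382_C4-3425 (0.37, adjusted p = 0.0387), was not called without any 1 of 5 libraries, all but A, nor with upper-quartile scaling, library totals, at least 10 CPM in 2 libraries or only the 4 libraries compared. The histidinol-phosphate aminotransferase BQ9382_C2-3235 stood at -2.61 (adjusted p = 4.35e-07) and -2.57 (adjusted p = 8.98e-07), and the ATP phosphoribosyltransferase BQ9382_C1-5345 at -1.74 (adjusted p = 4.3e-06) and -2.12 (adjusted p = 2.02e-06). Of 9 lysine synthesis genes, 8 were lower and 1 higher in *X33*-YPA, with a median of -1.11, and 7 and 1 in *GS115*-YPAH5x, with a median of -1.69. The homoaconitase gene *LYS4* (BQ9382_C4-0840) stood at -4.40 (adjusted p = 1.81e-07) and -3.59 (adjusted p = 8.26e-07), and *LYS1* (BQ9382_C1-3980) at -2.88 (adjusted p = 5.9e-07) and -2.65 (adjusted p = 1.42e-06). The arginine genes were not tested against these lists.

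Finally, the genes whose profile over the 6 libraries was most like that of *ARG3* and *ARG7* were listed by Pearson's r of log2 CPM, as a description. For *ARG3* these were BQ9382_C1-7215 (r = 0.99888), described as a DNA polymerase, the uncharacterised BQ9382_C1-7485 (r = 0.99857) and BQ9382_C1-6210 (r = 0.99840), described as a pyridoxal phosphate synthase subunit. For *ARG7* they were an unnamed row BQ9382_C3-0305 (r = 0.99963), the protein disulfide-isomerase BQ9382_C4-0580 (r = 0.99909) and the ATP synthase delta subunit gene *ATP16* (BQ9382_C1-6510, r = 0.99904). The 6 libraries fall into 3 groups, and 108 genes reached an r above 0.99 with *ARG3* and 86 with *ARG7*, so the genes named here are a few of many.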

How the data were processed

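Raw read counts per gene were deposited by the authors for 6 libraries, 1 column each and none pooled, and per the labels these came from total RNA from which a bacterial kit had removed ribosomal RNA. Tools named in the submitters' processing notes are featureCounts 1.6.4, Bowtie2, fastp 0.19.6, bcl2fastq 2.19.0.316 and DESeq2. For the Bowtie2 version, genome build and strand setting, nothing is given in the sources used here, and overlapping genes may share reads.

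The edgeR package 4.0.16 was run on the counts in R 4.3.3 (filterByExpr, TMM, quasi-likelihood test, legacy method, all 6 libraries in 1 fit, 3 residual degrees of freedom, no covariate), with Benjamini-Hochberg adjustment over 5426 genes in each comparison. Confidence intervals are at 95%. Each SE is the size of the log2 fold change divided by the square root of the test's F statistic. Intervals of log2 fold changes use a t distribution with 9.68 degrees of freedom, which include information shared across genes. Fits were tested on simulated data with few changed genes and the same spread for every gene. That test does not show how the fits fare where many genes change, as here. With library totals of 32194047 to 43447246, the spread between duplicates was the main limit of precision over all genes, though perhaps not for each gene. In each comparison 15 alternatives were run, among them DESeq2 1.42.0, other scalings and filters, and each library left out. The text names the arginine genes, every related gene found by the words searched, up to 2 genes of each other pathway and the 3 closest profiles, and *HIS4* was added. The members and lists were chosen with earlier results of these data known. Of the arginine genes that the words picked, 1 is not reported here, and every count over them covers the other 8. Gene coordinates and sequences were not used here.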

Additional observations from a re-analysis of the deposited data

Results flagged for a closer look

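Among the arginine genes and the 21 related genes, a difference between *X33*-YPA and *GS115*-YPAH5x was found for 3 that passed the test against *GS115*-YPA in one of them only. *ARG2* fell by 1.44 on the log2 scale in *X33*-YPA, had a value of -0.48 in *GS115*-YPAH5x (edgeR adjusted p = 0.0881), and differed directly by -0.96 (adjusted p = 0.00833). It was, however, called lower in *GS115*-YPAH5x with some other settings, such as library totals (-0.68, adjusted p = 0.0121). As said above, its direct call depended on single libraries (-0.86 without library F). Ornithine decarboxylase (BQ9382_C3-4175) fell by 0.87 in *X33*-YPA and was at 0.02 in *GS115*-YPAH5x, with a direct difference of -0.89 (adjusted p = 0.00193). Glutamine synthetase (BQ9382_C4-0910) rose by 1.13 in *GS115*-YPAH5x and was at 0.29 in *X33*-YPA (called there at 0.36 with library totals and at 0.50 without library B), with a direct difference of -0.84 (adjusted p = 0.00362). Both *X33*-YPA libraries were under both *GS115*-YPAH5x libraries for each of these genes. Since the genes were picked by this same direct difference, that separation adds no support.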

How the results depend on the processing

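Over 15 alternatives for each of 8 genes, 119 of the values in *X33*-YPA kept direction and call. The exception was *ARG2* when a log2 fold change over 1 was tested (adjusted p = 0.0542). In *GS115*-YPAH5x 114 kept both, and *ARG7* was lost in that test (adjusted p = 0.159), leaving 0 genes higher. *ARG2* there was called in 5 alternatives, with upper-quartile scaling, library totals alone (-0.68, adjusted p = 0.0121), only the 4 libraries compared (-0.49, adjusted p = 0.0217) and without C or D.

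Between *X33*-YPA and *GS115*-YPAH5x 98 kept both. The counts of 2 lower and 1 higher became 1 lower with library totals, 0 and 0 when a log2 fold change over 1 was tested, and 4 lower with only the 4 libraries compared. With 1 library left out, 0 to 4 were lower and 0 to 1 higher. Values near 0 changed sign with upper-quartile scaling (*ARG1* 0.010, *CPA1* 0.047), with library totals (*ARG4* 0.12, *ARG1* 0.16, *CPA1* 0.19) and without D (*ARG1* 0.0091, over a range of -0.25 to 0.0091 with 1 library left out). Upper-quartile scaling and library totals shift the median of all genes by -0.13 and -0.20 in *GS115*-YPAH5x and by 0.13 and 0.27 between *X33*-YPA and *GS115*-YPAH5x. There, 47.8% of calls over all genes were higher, against 61.3% and 75.2% with these scalings, and in *GS115*-YPAH5x 51.4% against 42.6% and 37.7%.

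Of the related genes, the values that changed sign were not called beforehand. In *X33*-YPA BQ9382_C3-4375 was at 0.038 with library totals, and with 1 library left out BQ9382_C2-1650 ran from -0.11 to 0.88, *ORT1* from -0.076 to 0.43 and *ARG81* from -0.026 to 0.18. In *GS115*-YPAH5x ornithine decarboxylase was at -0.12 with upper-quartile scaling, -0.18 with library totals, -0.038 with at least 10 CPM in 2 libraries, -0.0010 with only the 4 libraries compared and -0.15 to 0.15 with 1 library left out. Between *X33*-YPA and *GS115*-YPAH5x, upper-quartile scaling gave 0.086 for BQ9382_C1-2155 and 0.089 for BQ9382_C2-3235. Library totals gave 0.23 for each of these, 0.021 for BQ9382_C2-5935, 0.11 for BQ9382_C3-4210, 0.048 for BQ9382_C4-1485 and 0.038 for *LYS1*. With 1 library left out BQ9382_C1-2155 ran from -0.26 to 0.21 and *HIS4* from -0.059 to 0.18. Between these groups 4 related genes were higher and 6 lower, against 9 higher with library totals, 7 with upper-quartile scaling, 0 to 7 with 1 library left out (0 without F), and 3 to 7 lower. In *GS115*-YPAH5x 4 were lower, against 8 with either scaling and 2 to 6 with 1 library left out (2 without F). The cause of these changes was not tested.

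With 1 library left out, the lone library of its group was assumed to vary like the other groups. No paired analysis was possible because the labels give no replicate numbers shared between groups.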
